A study of Mus musculus with 12 samples.

Results

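Mir146, Mir27a and Mir342 are mouse microRNA genes, and Evl is the protein-coding gene within whose span Mir342 lies. These 4 loci, out of 22180 genes measured, were taken by name. The 3 microRNA genes were chosen by their interaction values on these arrays, that is, for a co-culture difference that differed between Cd36 knockout and wild-type macrophages. Evl was added as the host gene of Mir342. Each of the 4 was read by 1 probe set.

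RNA from primary macrophages of mice was read on 12 arrays, in 4 groups of 3. KO TAMs were Cd36 knockout macrophages kept for 72 h with 5TGM1, a mouse multiple myeloma line, to turn them into tumour-associated macrophages (TAMs). KO MΦs were Cd36 knockout macrophages (MΦs) without the myeloma cells, and WT TAMs and WT MΦs were the same pair of cultures from wild-type cells. Cd36 is a scavenger receptor for fatty acids and oxidised lipoproteins. The labels state neither the age and sex of the mice, nor the knockout allele, nor the tissue of origin, nor how the myeloma cells were taken off. They give a culture time for TAMs and none for MΦs, which leaves time as a further difference between the cultures. They also do not say whether the 3 arrays of a group stand for separate mice or cultures. The p-values thus cover only the spread among these arrays, part or all of which may be technical.

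MicroRNAs are cut from hairpins in longer primary transcripts, first in the nucleus by Drosha and then in the cytoplasm by Dicer. The mature strand guides an Argonaute protein to messenger RNAs that pair with its seed, the bases 2 to 8, and those messages are repressed. MiR-146a is induced by NF-kappaB and represses the signalling genes Traf6 and Irak1, so it acts as a brake on Toll-like receptor signalling in macrophages. MiR-27a is made from one cluster with miR-23a and miR-24 and is known for targets in lipid metabolism, among them Pparg. MiR-342 is made from an intron of Evl. The Evl protein belongs to the Ena/VASP family, which promotes the growth of actin filaments at the cell edge.

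The mature sequences are shown because relatives with one seed can pair with the same messages. Of the pairs that share a seed here, Mir146 and Mir146b are both measured. All come from RefSeq (GRCm38.p6), run from the first base of the mature strand, and have the seed in capitals.

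miR-146a-5p: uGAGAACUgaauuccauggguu
miR-146b-5p: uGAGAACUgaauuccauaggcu
miR-27a-3p: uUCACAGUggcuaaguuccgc
miR-27b-3p: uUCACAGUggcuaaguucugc
miR-23a-3p: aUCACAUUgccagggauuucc
miR-342-3p: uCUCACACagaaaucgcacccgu
miR-342-5p: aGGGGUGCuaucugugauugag

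MiR-146a-5p and miR-146b-5p shared the seed GAGAACU and differed at 2 positions of 22. MiR-27a-3p and miR-27b-3p shared the seed UCACAGU. Of the 1738 mature sequences in the table, which is not complete, no other carried either of these seeds or those of the miR-342 strands.

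The 3 hairpins are shown with the mature strands of both arms in capitals, since it is their genes, and not the mature strands, that the array names. All 3 matched the RefSeq table by symbol.

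Mir146: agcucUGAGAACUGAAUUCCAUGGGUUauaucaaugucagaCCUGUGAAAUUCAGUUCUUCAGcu
Mir27a: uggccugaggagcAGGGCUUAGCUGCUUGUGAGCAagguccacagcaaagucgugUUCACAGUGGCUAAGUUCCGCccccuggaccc
Mir342: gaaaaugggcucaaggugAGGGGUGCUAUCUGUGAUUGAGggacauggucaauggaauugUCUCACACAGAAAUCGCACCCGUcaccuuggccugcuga

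Mir146 is a 65-base hairpin gene on the minus strand, at chr11:43374397-43374461 of GRCm38.p6. Mir27a, with 87 bases, lies on the plus strand at chr8:84208672-84208758 and begins 80 bases after the end of Mir23a. Mir342, with 99 bases, lies on the plus strand at chr12:108658620-108658718. It sits 103.9 kb after the start of the span of Evl, chr12:108554681-108688516, and 29.8 kb before its end. Neither the labels nor the annotation say which bases the probe sets read. A value may therefore come from the hairpin, from the primary transcript around it or, for Mir342, from the host transcript, and the mature microRNAs were not measured separately.

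Median intensities per array were 31.3 to 33.3, and the number of arrays limits the precision. Cd36 was 3.40 ± 0.17 lower in KO than in WT arrays on the log2 scale (difference -3.40, standard error 0.17; limma, adjusted p = 6.63e-07), and its groups did not overlap in either culture. Its level was 8.45, 9.66 and 8.64 in KO TAMs, 8.79, 8.63 and 8.78 in KO MΦs, 12.14, 12.53 and 12.29 in WT TAMs and 12.10, 12.13 and 12.15 in WT MΦs, so the KO arrays still gave a signal at its probe set. The labels do not say which exons the knockout removes. TAM arrays varied more than MΦ arrays. Between 56 and 550 genes lay more than 1 log2 unit from the mean of the other arrays of their group on a TAM array, against 4 to 12 on an MΦ array, with 550 on KO TAM 1 and 414 on WT TAM 2. Xist, which coats the inactive X, had levels of 3.91 to 4.35 on the 6 KO arrays and 11.08 to 11.32 on the 6 WT arrays, so the genotype cannot be told apart from a difference in the sex of the cells. The probe sets of 3 Y-linked genes, Uty, Eif2s3y and Kdm5d, read 3.05 to 4.10 on the WT arrays, where Xist was high, and this range serves below as a measure of background.

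A level is the log2 of an intensity. A co-culture difference is TAMs minus MΦs, a genotype difference is KO minus WT, and the interaction is the co-culture difference in KO minus that in WT. The interaction chose the microRNA genes. It and the 4 single differences of which it is made are therefore given for the 4 loci ± the standard error as a description, with no test. The average co-culture difference and the average genotype difference over both strata are, in this balanced design, independent of the interaction in their estimates, and were tested with limma. They share its estimate of the spread, and the loci were chosen with results of these arrays in view, so the tests are not independent evidence. Beside them stands a two-sided exact permutation test over the arrays within each stratum, with 400 arrangements and a smallest possible p of 0.005. In bulk RNA, fewer cells that express a gene and less of its RNA per cell cannot be told apart.

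Mir146 was high in KO MΦs and low in the other groups. Its level was 3.23, 3.25 and 3.40 in KO TAMs, 6.02, 5.74 and 6.16 in KO MΦs, 2.56, 3.35 and 2.95 in WT TAMs and 3.66, 3.89 and 3.51 in WT MΦs. All 3 KO MΦ arrays lay above all other arrays, WT MΦs came next and did not overlap either TAM group, and the TAM groups of the 2 genotypes overlapped. The readings of KO TAMs and of both WT groups all lay within or below the background range of 3.05 to 4.10, so a level above background was read in KO MΦs only. The order among the other groups was thus measured at the low end of the scale.

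The co-culture difference of Mir146 was -2.68 ± 0.18 in KO and -0.73 ± 0.18 in WT. Its interaction was -1.95 ± 0.25, the 3rd lowest of all 22180 genes. The genotype difference was 0.34 ± 0.18 in TAMs and 2.29 ± 0.18 in MΦs, which ranked 5th from the highest of all genes. Averaged over the genotypes, Mir146 was lower in TAMs than in MΦs by -1.71 ± 0.13 (limma, adjusted p = 7.59e-06, exact permutation p = 0.005). Averaged over the cultures it was higher in KO by 1.31 ± 0.13 (limma, adjusted p = 3.36e-05, exact permutation p = 0.015). The WT co-culture difference and the genotype difference in TAMs compare readings that all lie within or below the background range. The other differences set the level in KO MΦs, alone or in a mean, against such readings, so their sizes and ranks describe intensities, and no fold is given.

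Mir27a moved in opposite directions in the 2 genotypes. Its level was 7.03, 6.95 and 6.58 in KO TAMs, 7.48, 7.49 and 7.50 in KO MΦs, 7.07, 7.04 and 6.99 in WT TAMs and 6.52, 6.41 and 6.38 in WT MΦs. Each KO TAM array lay below each KO MΦ array, and each WT TAM array lay above each WT MΦ array. The order was KO MΦs, then WT TAMs and KO TAMs, which overlapped, and then WT MΦs.

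The co-culture difference of Mir27a was -0.63 ± 0.11 in KO and 0.60 ± 0.11 in WT. The interaction was -1.23 ± 0.15, the 27th lowest of all genes. The genotype difference was -0.18 ± 0.11 in TAMs and 1.06 ± 0.11 in MΦs, a 2.08-fold higher intensity in KO MΦs. With opposite signs in the genotypes, the average co-culture difference was -0.02 ± 0.08 and did not pass the test (limma, adjusted p = 0.922, exact permutation p = 0.965). The average genotype difference was 0.44 ± 0.08 (limma, adjusted p = 0.00148), while the exact permutation test gave p = 0.095.

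Mir342 was highest in KO MΦs and nearly level between the TAM groups. It read 6.93, 6.44 and 6.72 in KO TAMs, 8.0, 8.06 and 8.23 in KO MΦs, 6.73, 6.66 and 6.74 in WT TAMs and 7.03, 7.12 and 6.99 in WT MΦs. All KO MΦ arrays stood above all others, each WT MΦ array stood above every TAM array, and the TAM groups overlapped. This is the order of groups that Mir146 showed, at levels well above the background range.

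For Mir342 the co-culture difference was -1.40 ± 0.11 in KO, or 2.64-fold lower in KO TAMs, and -0.34 ± 0.11 in WT. The interaction was -1.06 ± 0.16, the 50th lowest of all genes. The genotype difference was -0.01 ± 0.11 in TAMs and 1.05 ± 0.11 in MΦs. Averaged over the genotypes, Mir342 was lower in TAMs by -0.87 ± 0.08 (limma, adjusted p = 3.44e-05, exact permutation p = 0.005). The average genotype difference was 0.52 ± 0.08 (limma, adjusted p = 0.000777), while the exact permutation test gave p = 0.065.

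Evl, the host gene, had a small range and another order. Its level was 10.25, 10.37 and 10.45 in KO TAMs, 10.17, 10.19 and 10.23 in KO MΦs, 10.24, 10.29 and 10.34 in WT TAMs and 9.89, 9.86 and 9.93 in WT MΦs. TAM arrays lay above MΦ arrays in both genotypes, the TAM groups overlapped, and WT MΦs were lowest. The co-culture difference was 0.16 ± 0.08 in KO and 0.39 ± 0.08 in WT, with an interaction of -0.23 ± 0.11. The genotype difference was 0.07 ± 0.08 in TAMs and 0.30 ± 0.08 in MΦs.

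Averaged over the genotypes, Evl was higher in TAMs by 0.28 ± 0.06 (limma, adjusted p = 0.00408, exact permutation p = 0.005). It was also higher in KO by 0.19 ± 0.06 (limma, adjusted p = 0.0304, exact permutation p = 0.02). That call held in 9 of the 19 alternative settings, with adjusted p from 0.00635 to 0.0732, and was lost when any 1 MΦ array, KO TAM 2, KO TAM 3 or WT TAM 1 was left out. Evl thus rose on co-culture where Mir342 fell.

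**Figure D1:**
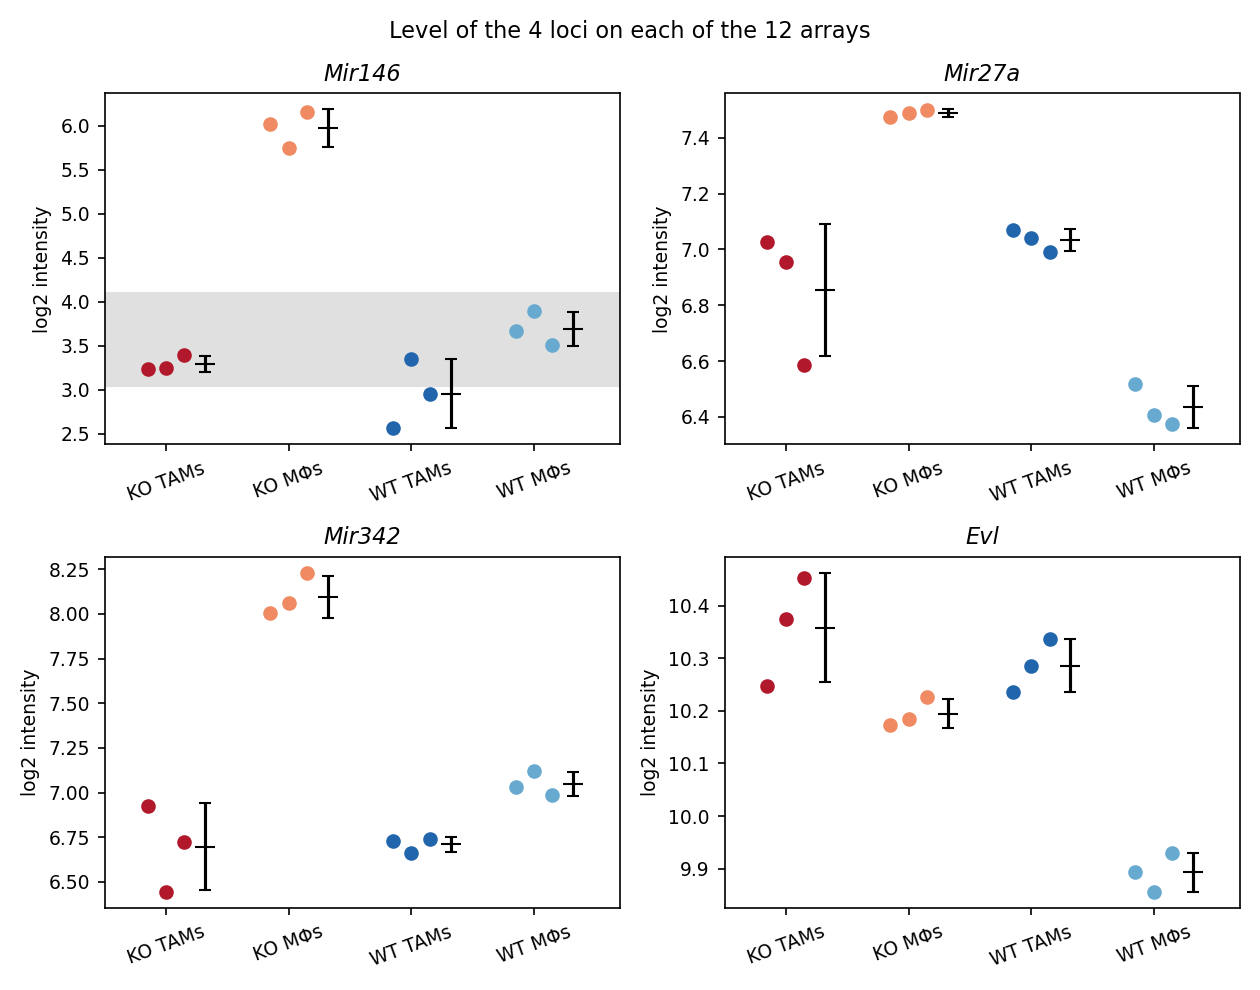
Level (log2 intensity, y axes with separate ranges that do not start at 0) of Mir146, Mir27a, Mir342 and Evl on each array, by group on the x axis. Points are arrays, the lines beside them the mean and SD of 3 arrays, and the grey band marks the 3.05 to 4.10 read by 3 Y-linked genes on the WT arrays. Mir146 stands above the band in KO MΦs only, and Mir342 has the same order of groups at higher levels.

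Set against all genes, 3 of the 4 loci passed limma's test for the average co-culture difference, 1 higher and 2 lower, where 17.2% of all 22180 genes did, 8.53% higher and 8.65% lower. For the average genotype difference all 4 passed, all of them higher in KO, where 21.5% of genes passed in either direction and 10.2% were higher. Adjusted p under 0.05 was reached by 6.53% of all genes in KO co-culture and by 11.5% in WT co-culture. The 3 microRNA genes had no overlap between KO TAMs and KO MΦs and were lower in KO TAMs, as 14.6% of all genes were, while Evl was higher without overlap, as 11.7% were. Between WT TAMs and WT MΦs, Mir27a and Evl were higher without overlap, as 15.5% of genes were, and Mir146 and Mir342 lower, as 14.6% were. All 4 were higher in KO MΦs than in WT MΦs without overlap, as 20.8% of genes were. None was free of overlap between KO TAMs and WT TAMs, where 12.8% of genes were higher without overlap and 11.8% lower. In the interaction itself 0.194% of genes passed, 0.104% higher and 0.0902% lower, but that contrast chose the microRNA genes and nothing is read from it here.

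When KO TAM 1 and WT TAM 2, the arrays that stood farthest apart, were both left out, the interaction was -1.72 for Mir146, -1.32 for Mir27a, -1.20 for Mir342 and -0.17 for Evl. The average co-culture and genotype differences of the 4 loci then had the same sign and the same side of the threshold as with all arrays.

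Mir23a lies upstream of Mir27a in one cluster, and Mir23b is its relative in the cluster of Mir27b. The probe sets of Mir23a, Mir23b and Mir146b were measured under 1 symbol each; Mir27b, Mir24-1 and Mir24-2 are not analysed here. Mir23a read 7.05, 6.01 and 5.97 in KO TAMs, 6.92, 7.16 and 7.02 in KO MΦs, 6.45, 5.98 and 6.82 in WT TAMs and 5.66, 5.89 and 5.82 in WT MΦs. Its KO MΦ arrays stood above all WT MΦ arrays, as those of Mir27a did, but KO TAM 1 read like a KO MΦ array and WT TAM 2 read near the WT MΦ arrays.

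The co-culture difference of Mir23a was -0.69 ± 0.26 in KO and 0.63 ± 0.26 in WT, close in size and sign to the -0.63 and 0.60 of Mir27a, and neither passed the test. Its interaction was -1.32 ± 0.37 (limma, adjusted p = 0.236). Without KO TAM 1 it was -1.67 (adjusted p = 0.00823), without WT TAM 2 it was -1.54 (adjusted p = 0.0793), and without both it was -1.89 (adjusted p = 0.000301). The genotype difference of Mir23a in TAMs was -0.07 with all arrays and -0.65 without both, while KO TAM 2 and WT TAM 2 read 6.01 and 5.98. A difference between replicate numbers may thus enter the interaction without both arrays. Over the 19 alternative settings the adjusted p of the interaction ran from 0.000301 to 0.461 and was under the threshold in 3. Its average genotype difference of 0.58 ± 0.19 passed the test (adjusted p = 0.0429) and lost the call in 9 of the alternative settings. Over the 12 arrays the levels of Mir23a and Mir27a had a Pearson r of 0.85, given as a description.

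Mir23b behaved otherwise. It read 6.98, 6.58 and 6.12 in KO TAMs, 6.50, 6.36 and 6.16 in KO MΦs, 7.31, 7.62 and 7.50 in WT TAMs and 5.84, 5.93 and 5.67 in WT MΦs. WT TAMs stood above all other arrays, and KO TAMs and KO MΦs overlapped. Mir23b rose on co-culture in WT, by 1.66 ± 0.18 (limma, adjusted p = 0.000218), and its co-culture difference in KO was 0.22 ± 0.18 (adjusted p = 0.565). The interaction of -1.44 ± 0.26 was the second lowest of all microRNA genes after Mir146 and missed the threshold (adjusted p = 0.0554). It passed without KO TAM 1 (adjusted p = 0.00344), without WT TAM 2 (adjusted p = 0.045) and without both (adjusted p = 0.00261). In all, 6 of the 19 alternative settings gave a call, with adjusted p from 0.00261 to 0.197.

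Mir146b, whose mature strand shares the seed of miR-146a-5p, did not share the pattern of Mir146. It read 4.31, 4.30 and 4.22 in KO TAMs, 4.54, 4.27 and 4.34 in KO MΦs, 4.25, 4.37 and 3.92 in WT TAMs and 4.68, 4.26 and 4.13 in WT MΦs. All its groups overlapped, at levels at or just above the background range. Its interaction was 0.07 ± 0.21 (limma, adjusted p = 0.95), and no other difference passed the test.

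**Figure D2:**
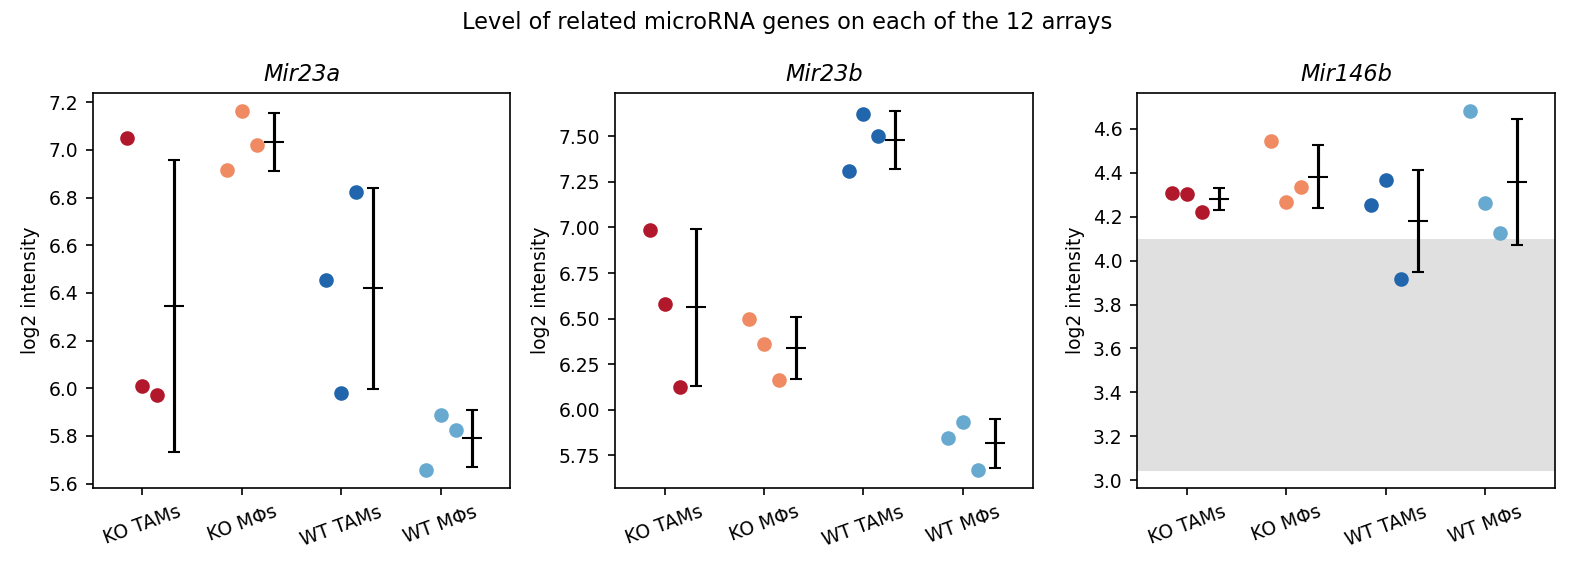
Level (log2 intensity, y axes with separate ranges that do not start at 0) of Mir23a, Mir23b and Mir146b on each array, by group on the x axis. Points are arrays, the lines beside them the mean and SD of 3 arrays, and the grey band is the background range. KO TAM 1 of Mir23a, at 7.05, lies apart from the other KO TAM arrays at 6.01 and 5.97.

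**Figure D3:**
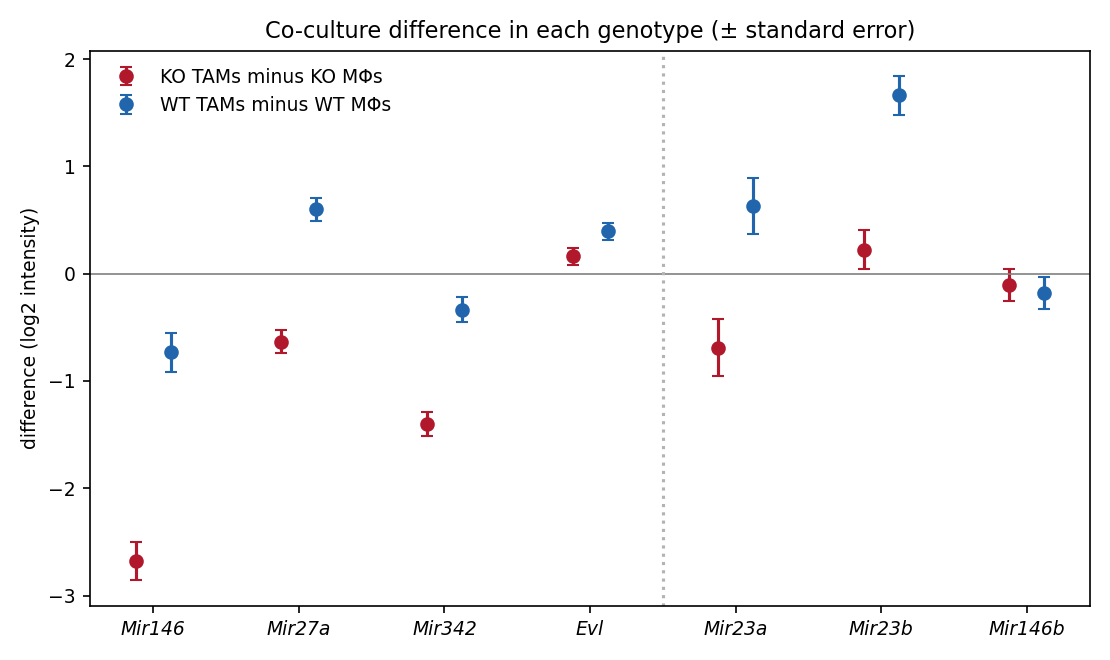
Co-culture difference (TAMs minus MΦs, log2 intensity) in KO and in WT for the 4 loci, left of the dotted line, and for the related microRNA genes, right of it. Points are differences of group means with 3 arrays each, and bars are limma standard errors. Mir27a and Mir23a lie on opposite sides of 0 in the 2 genotypes, and Mir146 is lower in both.

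Of the 478 genes on the array with a microRNA symbol, 475 were not among the 4 loci. None of the 475 passed limma's test for the interaction, where 0.194% of all genes did. At that share few or no calls are to be looked for among 475 genes or in the shorter lists below. The microRNA loci chosen by this contrast had been set aside, so the count does not set them apart. At an unadjusted p under 0.05 there were 55 of the 475, and the share of all genes at that p was not worked out. Without KO TAM 1 and WT TAM 2, 7 of the 475 were called higher and 8 lower, where 6.74% of all genes were called. After Mir23b the lowest p in the interaction, picked after the values were seen, belonged to Mir128-1 at -0.72 ± 0.14 (adjusted p = 0.0824) and Mir3095 at 1.89 ± 0.38 (adjusted p = 0.0845). Averaged over the cultures, 42 of the 475, or 8.84%, were higher in KO and 7, or 1.47%, lower, where 10.2% and 11.3% of all genes were. Between TAMs and MΦs, averaged over the genotypes, 13, or 2.74%, were higher in TAMs and 27, or 5.68%, lower, where 8.53% and 8.65% of all genes were. The median level of the 478 microRNA genes was 3.90, within the background range.

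A few of the other microRNA genes, chosen after their values were seen, resembled Mir146 and Mir342 in part. Mirlet7c-1 and Mir99a, which come from one cluster, read lower in KO TAMs than in KO MΦs, by -1.72 ± 0.26 (adjusted p = 0.00258) and -1.24 ± 0.22 (adjusted p = 0.00629). Both were higher in KO on average over the cultures, by 0.98 ± 0.18 (adjusted p = 0.00229) and 0.96 ± 0.15 (adjusted p = 0.000894). In the co-culture difference in WT they were at -0.68 (adjusted p = 0.123) and -0.71 (adjusted p = 0.0545), and in the interaction at -1.04 (adjusted p = 0.354) and -0.53 (adjusted p = 0.63). Mir340 and Mir34a were higher in KO on average, by 1.11 ± 0.09 (adjusted p = 1.72e-05) and 1.07 ± 0.14 (adjusted p = 0.000268).

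**Figure D4:**
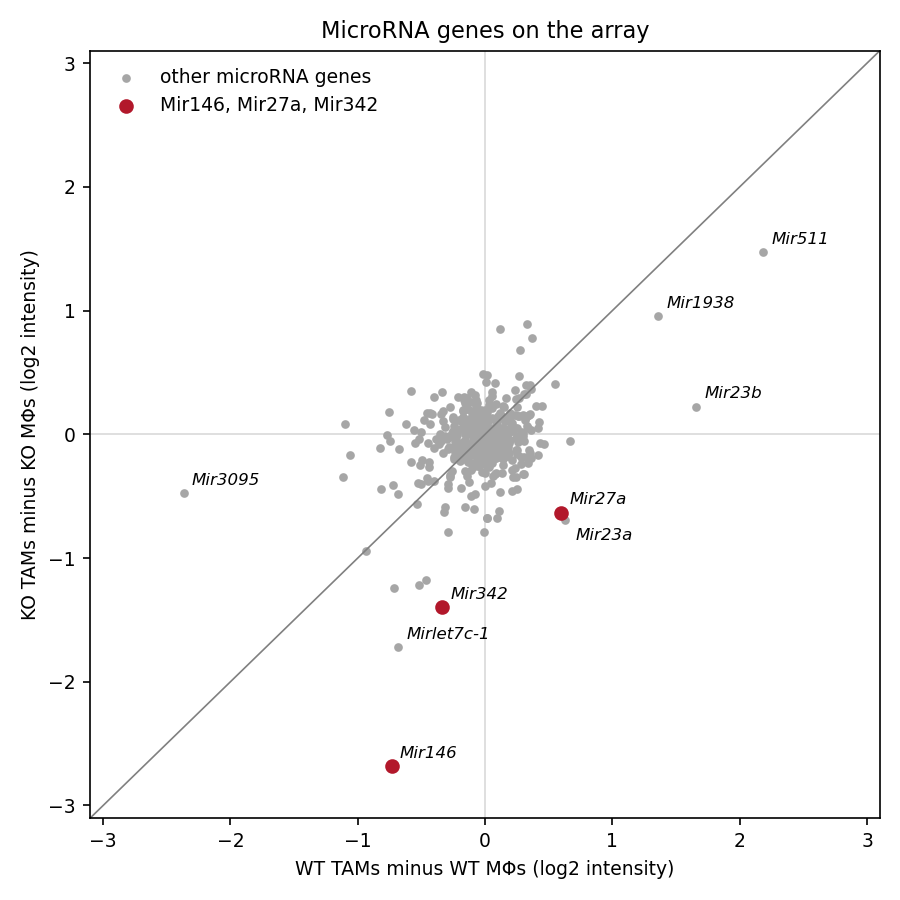
Co-culture difference in KO (y axis) against that in WT (x axis), in log2 intensity, for the 478 microRNA genes. Each point is a gene, the diagonal marks equal differences, and red points are Mir146, Mir27a and Mir342. Mir146, at -2.68 on the y axis, lies farthest below the diagonal, followed by Mir23b.

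Of 29 microRNA genes known in macrophages, 19 were measured, and none passed the test for the interaction. In WT co-culture 1 rose and 2 fell, where 5.89% and 5.66% of all genes did. In KO co-culture none rose and 2 fell, where 2.9% and 3.63% did. Mir511, which lies in the mannose receptor gene Mrc1, was 2.18 ± 0.50 higher in WT TAMs (limma, adjusted p = 0.0148). That call was lost in 4 of the alternative settings. Mirlet7e fell by 1.06 in WT co-culture (difference -1.06 ± 0.18, adjusted p = 0.00242), while its other probe set gave 0.06. Mir181b-1 was at -0.94 ± 0.25 in both genotypes (adjusted p = 0.0445 in KO and 0.0305 in WT, lost in 10 and 4 of the alternative settings). In the average genotype difference, named after their values were seen apart from Mirlet7e, Mir142, the blood cell microRNA, and Mir29a were higher in KO and Mir221 and Mirlet7e lower.

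The pair of Mir342 and Evl was set beside other microRNA genes and their host genes. In 43 such pairs both sides were measured. Over the 12 arrays, which share the 4 groups, the levels of Mir342 and Evl had a Pearson r of -0.21, while the other 42 pairs ranged from -0.38 to 0.94 with a median of 0.11, and 7 of them lay below -0.21. In 12 of the 42 either side passed the test for a co-culture difference in KO or WT. Of all single genes 6.53% passed in KO and 11.5% in WT. The share among pairs of other genes was not worked out, so nothing is read from the 12. Some hosts carry more than 1 of the microRNA genes, so the pairs are not independent.

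Mir511 and Mrc1 had differences of like size. The co-culture difference was 1.47 for Mir511 and 1.59 for Mrc1 in KO, and 2.18 and 1.98 in WT, and all but that of Mir511 in KO passed the test. Mir128-1 and its host R3hdm1 were at -0.05 and -0.18 in KO and at 0.66 and 0.45 in WT, and both passed the test in WT. In the pairs Mir326 and Arrb1, Mir139 and Pde2a, and Mir191 and Mir425 with Dalrd3, the host gene passed the test in a co-culture difference and the microRNA gene did not. Mir139 and Pde2a were still close, at -0.23 and -0.29 in KO and -0.58 and -0.67 in WT. Mir191 and Dalrd3 had opposite signs, at -0.21 and 0.61 in KO and -0.19 and 0.67 in WT. Calls were lost in 4 of the alternative settings for Pde2a in WT and in 2 for Arrb1 in KO. Those of Dalrd3 were lost in 5 in KO and 2 in WT, and that of R3hdm1 in WT in 5.

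Over the 12 arrays, the genes most like Mir146 in level were Arfrp1 (Pearson r 0.97), Dlg1 (0.97), St8sia6 (0.97), Rpl27a (0.96) and Mir342 (0.96). For Mir342 they were Mir146 (0.96), AI429214 (0.96), E330033B04Rik (0.96), Zfp781 (0.96) and Bclaf1 (0.95). Dlg1 encodes a scaffold protein of cell polarity, St8sia6 a sialyltransferase and Rpl27a a ribosomal protein. St8sia6 showed the size of the pattern nearest to that of Mir146, with 4.74, 5.22 and 4.94 in KO TAMs, 6.92, 6.79 and 6.68 in KO MΦs, 4.70, 4.61 and 4.57 in WT TAMs and 4.96, 5.08 and 5.26 in WT MΦs. Its KO MΦ arrays stood above all others, and its interaction was -1.36. Arfrp1 and Dlg1 had the order of Mir146 with interactions of -0.31 and -0.42.

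For Mir27a the most similar genes were 1700092K14Rik (r 0.94), Gltp (0.93), a glycolipid transfer protein, Tmem106c (0.91), Olfr706 (0.91) and Pcca (0.90), a mitochondrial propionyl-CoA carboxylase subunit. For Evl they were Cd200r4 (0.96), Stat6 (0.96), Adi1 (0.96), Neu1 (0.95) and Fnip2 (0.95). Stat6 is the transcription factor of interleukin-4 signalling and Neu1 a lysosomal sialidase. Cd200r4 read 9.05, 9.18 and 9.17 in KO TAMs, 8.77, 8.69 and 8.85 in KO MΦs, 8.80, 8.78 and 8.81 in WT TAMs and 7.69, 7.78 and 7.75 in WT MΦs, so that WT MΦs stood below all others, as with Evl. These genes were picked for their likeness over the same arrays, so their values are a description.

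The 3 tested genes on each side of each locus made 18 neighbours besides the 4 loci. None of the 18 passed limma's test for the interaction or for a co-culture difference. Of all genes 0.194% passed in the interaction, 6.53% in KO co-culture, 11.5% in WT co-culture and 17.2% in the average co-culture difference. With 18 genes, these counts do not set the neighbours apart from all genes. Of all genes 21.5% were called for the average genotype difference, and of the 18 neighbours 3 were. These were Slu7 next to Mir146 at 0.29 ± 0.07 (adjusted p = 0.00801), Mir181c near Mir27a at 0.23 ± 0.07 (adjusted p = 0.0432, lost in 10 of the alternative settings) and Mir23a. Pttg1, 45.8 kb from Mir146, and Zswim4, 2.18 kb from Mir27a, had interactions of 0.26 (adjusted p = 0.774) and -0.003 (adjusted p = 0.998). Degs2 and Gm16596, which overlap the span of Evl in the annotation, had interactions of -0.11 (adjusted p = 0.882) and -0.03 (adjusted p = 0.972).

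The genes for proteins that make and use microRNAs were read beside the share of all genes called. Of 25 listed, 23 were measured, none passed the test for the interaction, and the median interaction was -0.03, against -0.02 for all genes. In KO co-culture 2.9% of all genes rose and 3.63% fell. Of the 23, none rose and 2 fell, Prkra at -0.58 ± 0.11 (adjusted p = 0.0112) and Ran at -0.59 ± 0.13 (adjusted p = 0.0235). These calls were lost in 1 and 5 of the alternative settings. In WT co-culture 5.89% of all genes rose and 5.66% fell. Of the 23, 1 rose, Tut4 at 0.53 ± 0.14 (adjusted p = 0.0261), and 1 fell, Prkra at -0.42 ± 0.11 (adjusted p = 0.0303), each lost in 6 of the alternative settings. Without KO TAM 1 and WT TAM 2, 2 were higher and 4 lower in KO co-culture, where 9.68% of all genes were then called. Prkra encodes PACT, a partner of Dicer, Ran carries exportin-bound hairpins out of the nucleus, and Tut4 adds uridines to precursor RNA. In the average genotype difference 4 were higher in KO and 6 lower, where 10.2% and 11.3% of all genes were. Named after their values were seen, the 4 were Ago4 at 0.77, Prkra at 0.48, the Drosha partner Ddx5 at 0.36 and Tut7 at 0.34. Those lower in KO included Xpo5, which exports the hairpins, at -0.32, and Ago2, the slicing Argonaute, at -0.20.

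Toll-like receptor and NF-kappaB genes, the pathway that induces Mir146, fell on co-culture in WT more often than they rose. Of 26 listed, 23 were measured, and 2 rose and 9 fell in WT, where 5.89% and 5.66% of all genes did, with a median of -0.32 against 0.01 for all genes. In KO 1 rose and 2 fell, where 2.9% and 3.63% of all genes did, with a median of -0.08 against -0.01. None passed the test for the interaction. Without KO TAM 1 and WT TAM 2, 5 were higher and 2 lower in the interaction, in which 6.74% of all genes were then called, against 0.194% with all arrays.

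Nfkbiz, which encodes the nuclear protein IkappaB-zeta, read 9.76, 10.60 and 10.61 in KO TAMs, 11.10, 11.13 and 11.08 in KO MΦs, 9.64, 9.23 and 9.30 in WT TAMs and 11.03, 11.01 and 11.01 in WT MΦs. TAM arrays were below MΦ arrays in both genotypes. Its co-culture difference was -0.78 ± 0.19 in KO (adjusted p = 0.0321, lost in 7 of the alternative settings) and -1.63 ± 0.19 in WT (adjusted p = 0.000303). Irak3, which restrains the pathway, was at -0.32 in KO (not past the test) and fell by 1.23 in WT (difference -1.23 ± 0.21, adjusted p = 0.00309). Of the 2 that rose in WT, Nfkbie, an inhibitor of NF-kappaB, was at 0.79 in KO (not past the test) and at 1.40 ± 0.41 in WT (adjusted p = 0.0467, lost in 11 of the alternative settings). The other, named after its values were seen, was the lipopolysaccharide receptor gene Tlr4, at 0.47 ± 0.13 in KO (adjusted p = 0.0459) and at 0.71 ± 0.13 in WT (adjusted p = 0.0033). The adaptor Myd88 was at -0.08 in KO (not past the test) and at -0.66 ± 0.14 in WT (adjusted p = 0.00945), and Bcl3, another nuclear IkappaB protein, at -0.10 in KO (not past the test) and at -0.64 ± 0.09 in WT (adjusted p = 0.000995). In the average genotype difference 4 of the genes were higher in KO and none lower, where 10.2% and 11.3% of all genes were. The 4 were Nfkbiz and, named after their values were seen, Rel, Tlr2 and Tab2.

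Genes reported as targets of miR-146a were measured for 9 of 12. None passed the test for the interaction, with a median interaction of 0.00 against -0.02 for all genes. In KO co-culture 1 rose and none fell, where 2.9% and 3.63% of all genes did. In WT 2 rose and 1 fell, where 5.89% and 5.66% did. Traf6, the ubiquitin ligase below Toll-like receptors, was at 0.33 in KO (not past the test) and at 0.53 ± 0.15 in WT (adjusted p = 0.0395). Irak1, the kinase above Traf6, named after its values were seen, read 8.20 to 8.49 on all arrays, and its groups overlapped. The chemokine receptor gene Cxcr4 was higher by 2.42 ± 0.51 in KO (adjusted p = 0.0159) and by 2.62 ± 0.51 in WT (adjusted p = 0.00587). Irak2 was at -0.63 in KO (not past the test) and at -0.92 ± 0.26 in WT (adjusted p = 0.0376). The calls of Traf6 and Irak2 were each lost in 9 of the alternative settings, and that of Cxcr4 in KO in 3.

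Reported targets of miR-27 were measured for 16 of 20, and none passed the test for the interaction. The median interaction was -0.19, against -0.02 for all genes. In KO co-culture 3 rose and none fell, where 2.9% and 3.63% of all genes did. In WT co-culture 4 rose and 1 fell, where 5.89% and 5.66% did. Rxra, the partner receptor of PPARs, named after its values were seen, was higher by 0.37 ± 0.09 in KO (adjusted p = 0.0269, lost in 4 of the alternative settings) and by 0.43 ± 0.09 in WT (adjusted p = 0.00836). The antioxidant factor Nfe2l2 was higher by 0.45 ± 0.11 in KO (adjusted p = 0.0299, lost in 4 of the alternative settings) and by 0.65 ± 0.11 in WT (adjusted p = 0.00246). Cyp1b1 was higher by 2.36 ± 0.51 in KO (adjusted p = 0.0177, lost in 3 of the alternative settings) and was not called in WT. Called in WT only were Fbxw7 at 0.58 ± 0.13 (adjusted p = 0.0121) and Foxo1 at 0.53 ± 0.13 (adjusted p = 0.0177). Foxo1 was at -0.14 on its probe set with the lowest mean. The 1 that fell in WT was Il10, at -1.16 ± 0.33 (adjusted p = 0.0429, lost in 9 of the alternative settings). On average over the cultures 5 were higher in KO and 3 lower, where 10.2% and 11.3% of all genes were. Those higher included Il10 at 1.21 and, named after their values were seen, the cholesterol exporter Abca1 at 0.68 and Pparg, the fatty acid receptor, at 0.52. Those lower were Cyp1b1 at -2.47 ± 0.36 (adjusted p = 0.000467) and, named in the same way, lipoprotein lipase Lpl at -0.84 and Spry2 at -0.59.

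All 7 reported targets of miR-342 were measured. None passed the test for the interaction or for a co-culture difference in either genotype. Of all genes 0.194% passed in the interaction, 6.53% in KO co-culture and 11.5% in WT co-culture. At these shares few or no calls are to be looked for among 7 genes. On average over the cultures none was higher in KO and 3 were lower, where 10.2% and 11.3% of all genes were. The 3 were the cell-cycle factor Foxm1 at -1.40 ± 0.16 (adjusted p = 0.000111), the DNA methyltransferase Dnmt1 at -0.78 ± 0.06 (adjusted p = 1.81e-05) and Akt1 at -0.28 ± 0.05 (adjusted p = 0.00281), named after their values were seen. Without KO TAM 1 and WT TAM 2, 2 were lower in the interaction, where 6.74% of all genes were called, and 3 higher in WT co-culture, where 18.3% were.

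The Ena/VASP family and partners of Evl were measured for 20 of 20. On co-culture none rose and 4 fell in KO, where 2.9% and 3.63% of all genes did, and none rose and 8 fell in WT, where 5.89% and 5.66% did. In the average co-culture difference, in which Evl was higher in TAMs, 2 of the 20 were higher and 9 lower, where 8.53% and 8.65% of all genes were. The 2 that were higher, named after their values were seen, were Enah, the other close relative, at 1.10 ± 0.33 (adjusted p = 0.0386, lost in 11 of the alternative settings) and the actin-binding profilin gene Pfn2 at 0.35 ± 0.10 (adjusted p = 0.0373). Vasp, a close relative of Evl, read 8.56, 9.02 and 9.40 in KO TAMs, 9.69, 9.51 and 9.57 in KO MΦs, 8.42, 8.27 and 8.35 in WT TAMs and 9.95, 9.91 and 9.87 in WT MΦs. It was lower in TAMs without overlap in both genotypes, by -0.60 ± 0.16 in KO (adjusted p = 0.0481, lost in 12 of the alternative settings) and by -1.57 ± 0.16 in WT (adjusted p = 0.000144). The talin recruiter Apbb1ip was at -0.86 ± 0.20 in KO (adjusted p = 0.0267, lost in 3 of the alternative settings) and at -1.27 ± 0.20 in WT (adjusted p = 0.00187). Tes was at -1.72 ± 0.41 in KO (adjusted p = 0.0278) and -1.53 ± 0.41 in WT (adjusted p = 0.0313), lost in 3 and 6 settings. In WT, Fyb was at -0.39 ± 0.07 (adjusted p = 0.00471) and Vcl at -0.72 ± 0.17 (adjusted p = 0.0185, lost in 4 settings). Averaged over the cultures 3 of the 20 were higher in KO and 3 lower, where 10.2% and 11.3% of all genes were. Those lower included Enah at -1.97 and Vcl at -1.72. None of the 20 passed the test for the interaction, with Vasp at 0.97 (adjusted p = 0.135), and 3 were higher and 2 lower without KO TAM 1 and WT TAM 2, where 6.74% of all genes were called.

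Markers of other cell types were read beside these results. All 8 macrophage markers were measured, with levels of at least 9.12 and a mean over the list of 11.83 to 12.02 in KO TAMs, 11.48 to 11.49 in KO MΦs, 11.71 to 11.76 in WT TAMs and 11.63 to 11.67 in WT MΦs. In KO co-culture 4 of them rose and 1 fell, where 2.9% and 3.63% of all genes did. In WT 2 rose and 2 fell, where 5.89% and 5.66% did. Averaged over the genotypes 4 were higher in TAMs and 3 lower, where 8.53% and 8.65% of all genes were. In the interaction 1 of the 8 passed the test, where 0.194% of all genes did. This was Fcgr1, the high-affinity Fc receptor gene, at 1.16 ± 0.12 (adjusted p = 0.00366). The list mean of 8 plasma cell and myeloma markers was 5.60 to 5.76 in KO TAMs, 5.44 to 5.58 in KO MΦs, 5.66 to 5.71 in WT TAMs and 5.74 to 5.82 in WT MΦs. None of the 8 rose on co-culture in either genotype, and 1 fell in each. Of all genes 2.9% rose and 3.63% fell in KO, and 5.89% and 5.66% did in WT. At these shares few or no calls are to be looked for among 8 genes. For 4 B cell markers the mean was 4.47 to 5.09 in KO TAMs, 5.13 to 5.28 in KO MΦs, 4.34 to 4.60 in WT TAMs and 4.98 to 5.02 in WT MΦs. This list mean followed Cd79b, the B cell receptor gene, which read 6.13, 8.30 and 8.17 in KO TAMs, 9.04, 9.16 and 9.11 in KO MΦs, 5.77, 6.51 and 5.83 in WT TAMs and 7.83, 7.96 and 7.77 in WT MΦs. Like Mir146 and Mir342, Cd79b was highest in KO MΦs, while Cd79a, Ms4a1 and Pax5 read 3.31 to 4.48 on all arrays. For 7 T and NK cell markers it lay between 4.08 and 4.29 on all arrays.

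The mean of 9 stromal and endothelial markers was 5.35 to 6.16 in KO TAMs, 4.97 to 5.03 in KO MΦs, 6.43 to 6.99 in WT TAMs and 5.92 to 5.93 in WT MΦs. It was lowest in KO MΦs, the group in which Mir146, Mir27a and Mir342 were highest. None of the 9 was higher in KO on average over the cultures and 4 were lower, where 10.2% and 11.3% of all genes were. Among the 4 was the collagen gene Col1a2 at -2.56 ± 0.28 (adjusted p = 6.71e-05). On average over the genotypes 5 of the 9 were higher in TAMs and none lower, where 8.53% and 8.65% of all genes were. Among the 5, the calls of Col3a1 and Dcn were lost in 10 and 9 of the alternative settings. Without KO TAM 1 and WT TAM 2, 3 of the 9 were higher, where 19.4% of all genes were called in either direction. The part of these cells in the levels of the 4 loci was not tested.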

How the data were processed

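RNA of 12 samples of mouse primary macrophages was labelled with biotin and read on single-channel arrays. The authors deposited 1 table of intensity values, made with RMA per the submitters' processing notes, which list limma too, both without a version. RMA equalises the distributions of the arrays, which hides a shift common to most genes. The deposited intensity values, from 3.57 upward, have the range of a linear scale, and their log2 was taken here. Of 41345 probe sets, 23521 had 1 gene symbol, 1814 several and 16010 none, and the last 2 kinds were left out. The Entrez ID of 23328 matched RefSeq (GRCm38.p6), and 0 symbols changed. The probe set with the highest mean stood for a gene (1082 genes had several), which left 22180 genes.

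A model of 4 group means was fitted to all 12 arrays with limma 3.58.1 in R 4.3.3 (lmFit, eBayes), and checked on simulated data. Calls used a Benjamini-Hochberg adjusted p under 0.05 over all genes. The alternatives were another quantile step, median centring, array weights, a replicate block, the lowest probe set, a level filter and leaving out arrays. The loci and all gene lists were chosen with earlier results of these data known. Text names follow a rule: the 4 loci, the 5 most similar genes of each, up to 5 called genes per list by size of the interaction, relatives, up to 6 host pairs with a called side, and the 3 nearest tested genes on each side. Genes outside it, other than cell markers and Cd36, are mostly marked as named after their values were seen.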

Additional observations from a re-analysis of the deposited data

Results flagged for a closer look

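Mir146, Mir27a and Mir342 had different co-culture differences in the genotypes, with interactions of -1.95, -1.23 and -1.06. They were chosen by this contrast, so the values are given as a description.

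St8sia6 was at -1.36, Fnip2 at -0.87 and Cd200r4 at -0.69 in the interaction. These genes were picked for their likeness to Mir146 or Evl over the same arrays, so their values too are a description and rest on no independent test.

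Fcgr1, a macrophage marker from a list, had an interaction of 1.16 (limma, adjusted p = 0.00366). It read 11.73, 11.48 and 11.73 in KO TAMs, 10.26, 10.24 and 10.23 in KO MΦs, 11.48, 11.50 and 11.50 in WT TAMs and 11.22, 11.21 and 11.32 in WT MΦs, so that KO MΦs were lowest.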

How the results depend on the processing

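Of 18 pairs of samples with one replicate number, 2 deviated together, KO TAM 1 with WT TAM 1 (r 0.27) and KO TAM 2 with WT TAM 2 (r 0.25), while KO TAM 3 with WT TAM 3 had 0.03. Pairs with different numbers had at most 0.07, and the lowest were KO TAM 2 with WT TAM 1 (r -0.28) and KO TAM 1 with WT TAM 2 (r -0.20). All pairs with an MΦ array, a kind that varied little, were under 0.1. The labels give the numbers no meaning, so no pairing was assumed. A link by number among the TAM arrays was not tested beyond a replicate block. With a replicate block 26 genes were called in the interaction, against 43 without it. The count in the interaction was 761 with array weights, 1496 without WT TAM 2 and KO TAM 1, 100 among genes above the median level and 14 to 444 with 1 array left out. In KO co-culture it was 1449 genes in the design used, 2705 with array weights and 611 to 1939 with 1 array left out. In WT co-culture it was 2561 genes, 3976 with array weights, 4049 without the 2 arrays and 1475 to 3393 with 1 left out. The average co-culture difference called 3040 to 4002 genes with 1 array left out and the average genotype difference 3820 to 5557.

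Mir27a had no settled sign in the average co-culture difference, at 0.0040 with array weights and -0.0602 to 0.0506 with 1 array left out. Its interaction ran from -1.32 to -1.10 with 1 array left out, that of Mir146 from -2.14 to -1.75 and that of Mir342 from -1.18 to -0.94, with -1.23 for Mir342 under array weights. The average genotype difference of Evl was 0.16 (adjusted p = 0.0587) after another quantile step and 0.16 to 0.21 with 1 array left out. Mir146 has no value among genes above the median level. On the probe set with the lowest mean, Actg1 was at 0.0672 in the average genotype difference, Foxo1 at -0.14 in WT co-culture, and Mirlet7e at 0.18 in the average and 0.0569 in the WT co-culture difference. The interaction of Mir146b ran from -0.0883 to 0.1875 with 1 array left out and was below 0 without WT MΦ 1 or WT TAM 3. The cause was not tested. Of 195 named calls, 132 held in all 19 settings.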
